A study of Mus musculus with 24 samples.

Results

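The enzymes of glycolysis, those that set the activity of pyruvate dehydrogenase and those that store and release glycogen were followed in mouse retina as a list of 35 genes. A gene was taken where the array annotation gave its symbol, and no other, to at least 1 probe set, the set of short probes that stands for a transcript on the array. That held for 31 of the 35 genes, with 64 of the 45101 probe sets of the array. Gpi1, Pfkfb1, Eno1 and G6pdx had no such probe set and were not analysed here, and Gapdh was measured only by 3 control probe sets, which were left out of the tests. The other 30 genes are each represented by the probe set with the highest mean over all arrays. The 24 arrays held retinal RNA of BALB/c mice in 8 groups of 3. Hypoxic mice breathed 6% oxygen for 6 h, and their retinas were taken at once (0 h) or once they had been back in room air, in darkness, for 2, 4 or 16 h. Normoxic mice were handled in parallel and sampled at the same times. The strain carries the Leu form of Rpe65, which makes the retina sensitive to light, on both copies, and the age of the mice is not given in the sources used here. An array measured the joint RNA of 3 retinas, each from another mouse, so pools are the replicates.

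Glycolysis splits glucose into pyruvate in the cytosol and yields ATP without oxygen. Hexokinase and phosphofructokinase are its controlled early steps, and lactate dehydrogenase closes it by turning pyruvate into lactate and restoring NAD. Pyruvate dehydrogenase, inside the mitochondrion, instead turns pyruvate into acetyl-CoA for oxidation. Its kinases (Pdk) switch it off while its phosphatases (Pdp) switch it on. The retina is known for a high rate of glycolysis even in oxygen, with photoreceptors as its main site. HIF-1, the transcription factor that low oxygen stabilises, is known to raise many genes of this pathway, Pdk1 among them.

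The values are log2 signals after RMA, and a log2 change below is the mean of hypoxic pools minus that of normoxic pools at the same time. Only probe sets with enough signal were tested, which required a mean of at least 6.69 in hypoxic or in normoxic pools at the time in question, the low point that parts dim from bright values. A gene is called higher or lower at an adjusted p under 0.05 (limma on all 24 arrays, Benjamini-Hochberg over all probe sets tested). As a check of the tissue, the summed linear signal of 5 rod photoreceptor markers was 72667 to 74095 in hypoxic and 74801 to 76237 in normoxic pools at 0 h, and none of the 5 was called at any time. Of 5 cone photoreceptor markers 1 was lower at 0 h, 1 at 2 h and 2 at 4 h, when their sum was 12668 to 12784 in hypoxic and 14121 to 15117 in normoxic pools. Among the tested bipolar cell markers 1 was lower at 0 h and at 2 h, and their sum at 2 h was 4005 to 4545 in hypoxic and 4939 to 5301 in normoxic pools. All 4 tested of 6 markers of the retinal pigment epithelium, the cell layer behind the retina, were higher at 0 h, 3 of them (Rpe65, Rgr and Rdh5) tested only through the hypoxic pools. The summed linear signal of that list was 6746 to 7543 in hypoxic pools and 571 to 918 in normoxic pools at 0 h, and 1972 to 4735 in hypoxic pools and 899.9 to 2559 in normoxic pools at 2 h, when none was called. The part of these markers in the results was not tested. Lens markers summed to 44599 to 79415 in hypoxic pools and 4179 to 64706 in normoxic pools at 0 h, the lowest value being that of normoxic pool 2. As a sign of RNA quality, the signal near the 3′ end of the Actb transcript was compared with that near its 5′ end. Normoxic pool 3 at 16 h stood apart, with a log2 difference of 1.19, against 0.55 to 0.78 on the other 23 arrays. Of the vessel markers, 1 of 2 tested was lower at 0 h, 2 h and 4 h. In pooled tissue, fewer cells of a type and less RNA per cell cannot be told apart.

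Directly after hypoxia 9 of 29 tested members were higher in hypoxic than in normoxic retinas and 1 was lower. The higher ones were Hk2, Pfkp, Pfkfb3, Tpi1, Pgk1, Ldha, Pdk1, Pgm1 and Gys1, and the lower one was Pdp1. The members called higher made up 31.0%, against 15.2% of all probe sets tested at 0 h, and those called lower 3.45%, against 17.2%. In 15 members all hypoxic pools lay above all normoxic pools and in 2 below, where the shares over all probe sets were 21.5% and 23.9%. The median log2 change of the members was 0.17, against -0.01 over all probe sets tested. The methods' t-test called 5 higher after adjustment (Pfkfb3, Ldha, Pgam1, Pgm1 and Gys1) and 1 lower (Pdp1). No share over all probe sets was taken for that test. By that test Hk2, Pfkp, Pgk1 and Pdk1 had adjusted p of 0.0558 to 0.0849 and Tpi1 of 0.227. With normoxic pool 2 at 0 h and normoxic pool 3 at 16 h left out, the arrays that stood apart in lens markers and in Actb, limma called 10 members higher and 1 lower, a choice made after seeing the data. Each member called higher by limma had its lowest normoxic value at 0 h in normoxic pool 3. So did Hk1, Pfkl, Pfkm, Aldoa and Pdk2, which were not called, while Pfkfb2 was highest in that pool. Leaving out any single pool of 0 h gave 8 to 10 members higher.

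During reoxygenation the list moved back and in part past the controls. At 2 h 4 of 29 members were higher (Pfkp, Pdk1, Pdk3 and Pgm1) and 3 lower (Pfkfb3, Pdp1 and Pygb), against 9.19% higher and 7.38% lower over all probe sets. These counts depended on single pools. They were 2 higher without hypoxic pool 1, hypoxic pool 2 or normoxic pool 1 of that time point, and 1 lower without hypoxic pool 2 or 3 or normoxic pool 1 or 3. At 4 h 0 were higher and 2 lower (Pfkfb3 and Pgm1), where the background was 0.876% and 0.551%. Over both directions 9 passed an unadjusted p under 0.05 at that time, a count for which no share over all probe sets was taken. The methods' t-test called 0 after adjustment. Only 1 was lower by limma without hypoxic pool 1 or 3 or normoxic pool 2 or 3. All hypoxic pools lay above all normoxic pools in 8 members and below in 4 at 2 h (19.8% and 14.9% of all probe sets), and above in 1 and below in 9 at 4 h (17.1% and 10.2%). At 16 h limma called 0 of 28 tested members by their brightest probe sets, and 0 passed an unadjusted p under 0.05. Other probe sets of Hk1 (0.27), Pfkfb2 (0.44), Pdha1 (0.29), Pdp1 (0.33) and Tpi1 (-0.20) reached that unadjusted p, without a call. The methods' t-test called 0 after adjustment. The background was 0% in either direction at that time. Over these 3 times the median log2 change of the members was 0.05, then -0.05 and then -0.01.

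**Figure D1:**
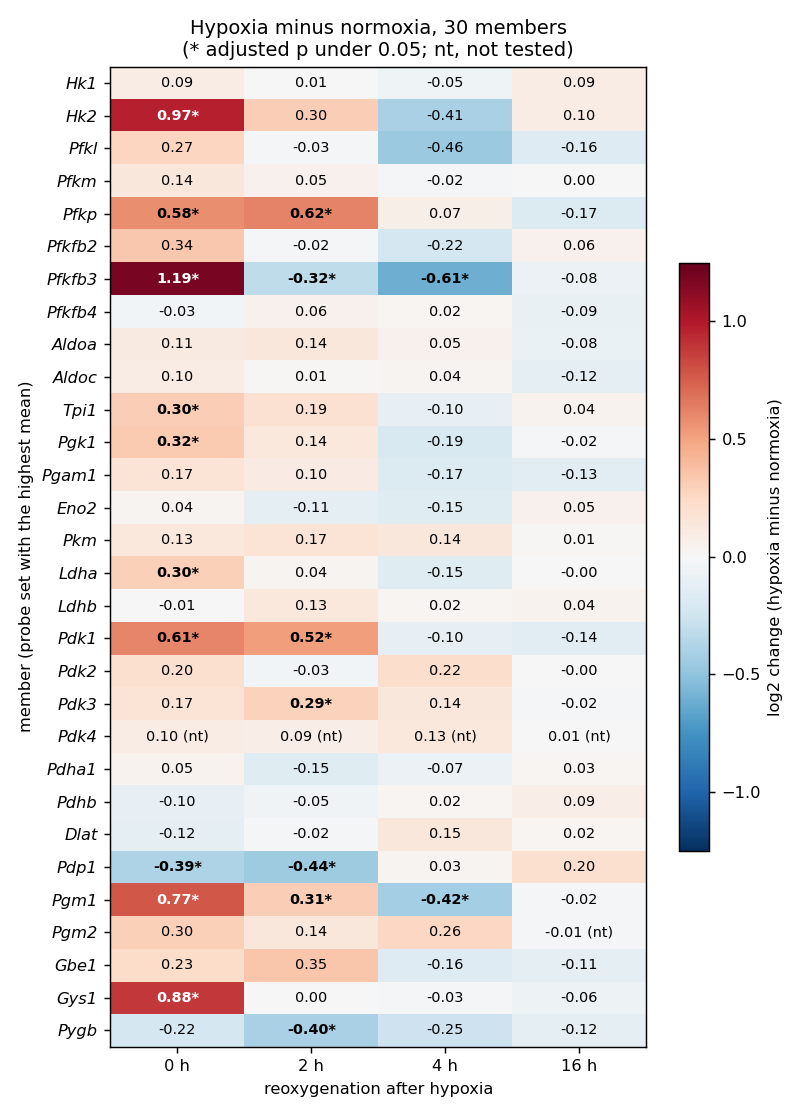
Log2 change (hypoxia minus normoxia) of the 30 represented members, in rows by step of the pathway, at 0, 2, 4 and 16 h of reoxygenation, with asterisks for an adjusted p under 0.05 and nt for values not tested. Red cells gather at 0 h, where 9 members were higher, and blue cells at 4 h, where Pfkfb3 and Pgm1 were lower.

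Because HIF-1 reads a short core, ACGTG or GCGTG, the 250 bases before the gene starts that RefSeq lists on GRCm38.p6 were searched for these letters and their reverse complements, CACGT and CACGC. Of the 35 members 34 matched the table, with 53 starts, some of whose windows overlap. ACGTG or its complement stood in 35.8% of the member windows, against 16.6% of the 32851 windows of all genes. GCGTG or its complement stood in 49.1%, against 28.2%. The windows of all genes were not matched to those of the members in base composition or in expression. Within the list, ACGTG was found in 6 of 12 windows of the members higher at 0 h (50.0%) and in 13 of 30 windows of members not called (43.3%), and GCGTG in 4 of 12 (33.3%) and 15 of 30 (50.0%). A match says only that these letters are present. Of the members higher at 0 h, Gys1 and Tpi1 hold neither core in these windows, and Pfkp and Pdk1 hold GCGTG but not ACGTG. The following windows belong to 5 members that were higher at 0 h and hold ACGTG, and to Gys1, which holds neither core. The log2 changes of the 5 at 0 h ran from 0.30 in Ldha to 1.19 in Pfkfb3, and that of Gys1 was 0.88. Capitals mark the matches, and CACGTG counts on both strands. They lie, in the order shown, at chr6:82774455-82774704 (minus strand), chr2:11502091-11502340 (minus strand), chrX:106186850-106187099 (plus strand), chr7:46845554-46845803 (plus strand), chr4:99929201-99929450 (plus strand) and chr7:45434589-45434838 (plus strand).
Hk2: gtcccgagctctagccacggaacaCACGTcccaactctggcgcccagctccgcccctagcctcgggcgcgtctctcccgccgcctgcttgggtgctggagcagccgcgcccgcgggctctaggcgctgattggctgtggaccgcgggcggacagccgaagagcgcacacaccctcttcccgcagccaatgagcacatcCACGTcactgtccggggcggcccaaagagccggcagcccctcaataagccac
Pfkfb3: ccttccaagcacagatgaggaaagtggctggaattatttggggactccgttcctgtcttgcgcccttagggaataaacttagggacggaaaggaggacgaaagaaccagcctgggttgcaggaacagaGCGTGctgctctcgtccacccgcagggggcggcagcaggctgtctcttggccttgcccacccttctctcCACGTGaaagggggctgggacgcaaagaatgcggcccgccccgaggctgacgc
Pgk1: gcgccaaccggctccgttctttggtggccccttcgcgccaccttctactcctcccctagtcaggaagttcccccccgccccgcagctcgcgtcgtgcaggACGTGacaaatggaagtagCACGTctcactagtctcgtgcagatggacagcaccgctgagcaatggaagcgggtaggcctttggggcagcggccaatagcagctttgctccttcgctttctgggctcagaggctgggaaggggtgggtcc
Ldha: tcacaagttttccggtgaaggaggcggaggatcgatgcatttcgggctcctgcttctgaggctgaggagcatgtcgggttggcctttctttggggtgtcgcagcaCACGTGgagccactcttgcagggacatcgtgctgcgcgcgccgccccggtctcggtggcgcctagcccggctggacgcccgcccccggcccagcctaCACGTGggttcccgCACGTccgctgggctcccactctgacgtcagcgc
Pgm1: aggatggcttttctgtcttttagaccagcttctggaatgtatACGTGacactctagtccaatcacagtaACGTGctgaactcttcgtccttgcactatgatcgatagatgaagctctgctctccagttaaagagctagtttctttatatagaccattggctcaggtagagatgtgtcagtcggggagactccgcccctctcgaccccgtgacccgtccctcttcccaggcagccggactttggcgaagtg
Gys1: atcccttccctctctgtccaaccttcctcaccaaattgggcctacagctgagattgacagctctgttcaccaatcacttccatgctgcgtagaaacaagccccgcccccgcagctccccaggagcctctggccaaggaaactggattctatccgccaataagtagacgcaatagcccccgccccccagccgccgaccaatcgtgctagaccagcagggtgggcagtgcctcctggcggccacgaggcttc
The window of Ldha held the most matches of these 6, with 5 counted over both strands, the nearest 34 bases before the start. In Pfkfb3 and Hk2 a match lay 52 bases before it.

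Of the hexokinases, which phosphorylate glucose and so trap it in the cell, Hk2 was higher at 0 h and Hk1 was not called. Hk2 is the isoform known to be induced by HIF-1. Its log2 signal was 12.76, 12.66 and 12.80 in the hypoxic pools at 0 h, against 12.00, 11.93 and 11.36 in the normoxic pools. The groups did not overlap, the hypoxic pools lay close together and normoxic pool 3 was the lowest. The means were 12.74 ± 0.07 in hypoxic and 11.77 ± 0.35 in normoxic pools (SD, n = 3 each), a log2 change of 0.97 (SE 0.14, limma adjusted p = 2.17e-05), which is 1.96-fold. Without normoxic pool 3 the change was 0.77. At 2 h the pools overlapped, with 12.46, 12.06 and 12.12 in hypoxia against 11.63, 12.07 and 12.04 in normoxia (log2 change 0.30, adjusted p = 0.156). By 4 h the order was turned, since 11.57, 11.47 and 11.62 in hypoxic pools all lay under 11.86, 11.95 and 12.06 in normoxic pools. That difference of -0.41 did not pass (adjusted p = 0.162). Hk1, the isoform known as constitutive in brain and retina, had 11.95, 12.01 and 11.94 in hypoxic and 12.01, 11.95 and 11.67 in normoxic pools at 0 h. Its groups overlapped, with a log2 change of 0.09 (95% interval -0.10 to 0.28). A second probe set of Hk1, nearly as bright, had a log2 change of 0.23 at 0 h. Its hypoxic pools lay wholly above the normoxic pools, without a call (adjusted p = 0.0981).

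The isoforms of a step were set against each other within each array, and the treatment labels were permuted within 0 h and 2 h together. The 400 splits give a two-sided exact p of at least 0.005, while 3 pools against 3 at 1 time point cannot go below 0.10. Of 20 pairs 13 could be tested, and p-values were adjusted over these. Over 0 h and 2 h hypoxia moved Hk2 up relative to Hk1 by 0.59 on the log2 scale (exact permutation p = 0.015, adjusted p = 0.0325). The difference was 0.88 at 0 h, where the pools did not overlap, and 0.30 at 2 h, where they did. Without hypoxic pool 1 or 3 or normoxic pool 1 of 2 h the adjusted p was 0.065.

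Phosphofructokinase, the step that commits sugar to glycolysis, was measured as Pfkl, Pfkm and Pfkp, and Pfkp stood out. Its log2 signal was 11.93, 12.20 and 12.12 in hypoxic pools at 0 h, against 11.43, 11.73 and 11.35 in normoxic pools. At 2 h it was 12.03, 12.18 and 12.08 in hypoxic pools, against 11.27, 11.51 and 11.65 in normoxic pools. The hypoxic pools lay wholly above at both times. The log2 change was 0.58 (SE 0.12, adjusted p = 0.000561) at 0 h and 0.62 (SE 0.12, adjusted p = 0.00124) at 2 h, which is 1.50-fold and 1.53-fold. At 4 h it was 0.07 and at 16 h -0.17, neither of them called. Pfkm, named for muscle, had 10.95, 10.99 and 11.02 in hypoxic pools at 0 h, against 10.88, 10.90 and 10.75 in normoxic pools. These groups too did not overlap, but the difference of 0.14 was not called (adjusted p = 0.102). Pfkl, named for liver, had 11.48, 11.72 and 11.65 in hypoxic pools and 11.61, 11.47 and 10.97 in normoxic pools at 0 h, a difference of 0.27 with overlapping pools (adjusted p = 0.135). At 4 h its hypoxic pools, at 11.12, 11.31 and 11.17, lay below all normoxic pools, at 11.52, 11.70 and 11.76, and the difference of -0.46 was not called (adjusted p = 0.0895).

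The isoforms of this step differed in their response. Relative to Pfkl, Pfkp moved up by 0.48 over 0 h and 2 h, and relative to Pfkm by 0.50 (exact permutation p = 0.005 and adjusted p = 0.0163 for each, the smallest p the splits can give). In both comparisons all hypoxic pools lay above all normoxic pools at 0 h and at 2 h. The pair Pfkp and Pfkl was apart at 4 h too, by 0.53. Pfkm and Pfkl differed by -0.02 (exact permutation p = 0.855).

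The largest rise of the list at 0 h was that of Pfkfb3, whose product makes the fructose bisphosphate that activates phosphofructokinase. Its signal was 8.31, 8.18 and 8.13 in hypoxic pools, against 7.04, 7.10 and 6.92 in normoxic pools. The lowest hypoxic pool stood about a unit above the highest normoxic one. The means were 8.21 ± 0.10 in hypoxic and 7.02 ± 0.09 in normoxic pools (SD, n = 3 each), a log2 change of 1.19 (SE 0.11, adjusted p = 4.42e-08), or 2.28-fold. At 2 h the order had turned, with 7.38, 6.94 and 7.19 in hypoxic pools against 7.50, 7.55 and 7.41 in normoxic pools (log2 change -0.32, SE 0.11, adjusted p = 0.045). Leaving out hypoxic pool 2 gave -0.20 (adjusted p = 0.225). The call was also lost without hypoxic pool 3 or any 1 of the normoxic pools, with adjusted p of 0.0638 to 0.122. At 4 h Pfkfb3 was lower by more, with 6.67, 6.88 and 6.84 in hypoxic pools against 7.29, 7.56 and 7.37 in normoxic pools. The log2 change there was -0.61 (SE 0.11, adjusted p = 0.00447), and -0.08 at 16 h. It was not called at 4 h from the 6 arrays of that time point alone (adjusted p = 0.0562). The values below the controls rest on this probe set. A dimmer one, under the signal threshold at both times and not tested, had 0.03 at 2 h and -0.04 at 4 h. With both averaged the change was -0.14 at 2 h (adjusted p = 0.282) and -0.32 at 4 h (adjusted p = 0.0627).

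Neither of the other isoforms of this enzyme was called at any time. Pfkfb2, known from heart, had 10.33, 10.61 and 10.48 in hypoxic pools at 0 h and 9.70, 10.30 and 10.40 in normoxic pools. The groups overlapped, with a log2 change of 0.34 (adjusted p = 0.0804). Pfkfb4, an isoform known to respond to hypoxia in other tissues, had 7.28, 7.26 and 7.43 in hypoxic pools and 7.22, 7.51 and 7.34 in normoxic pools. Its difference was -0.03 (95% interval -0.28 to 0.21). At 0 h alone Pfkfb3 was moved up by 0.85 relative to Pfkfb2 and by 1.22 relative to Pfkfb4, with no overlap of the pools in either. At 2 h the differences were -0.30 and -0.37. Over both times together they came to 0.28 (exact permutation p = 0.305) and 0.42 (exact permutation p = 0.145), and the test over both times did not separate these isoforms. Pfkfb4 and Pfkfb2 differed by -0.15 (exact permutation p = 0.315).

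**Figure D2:**
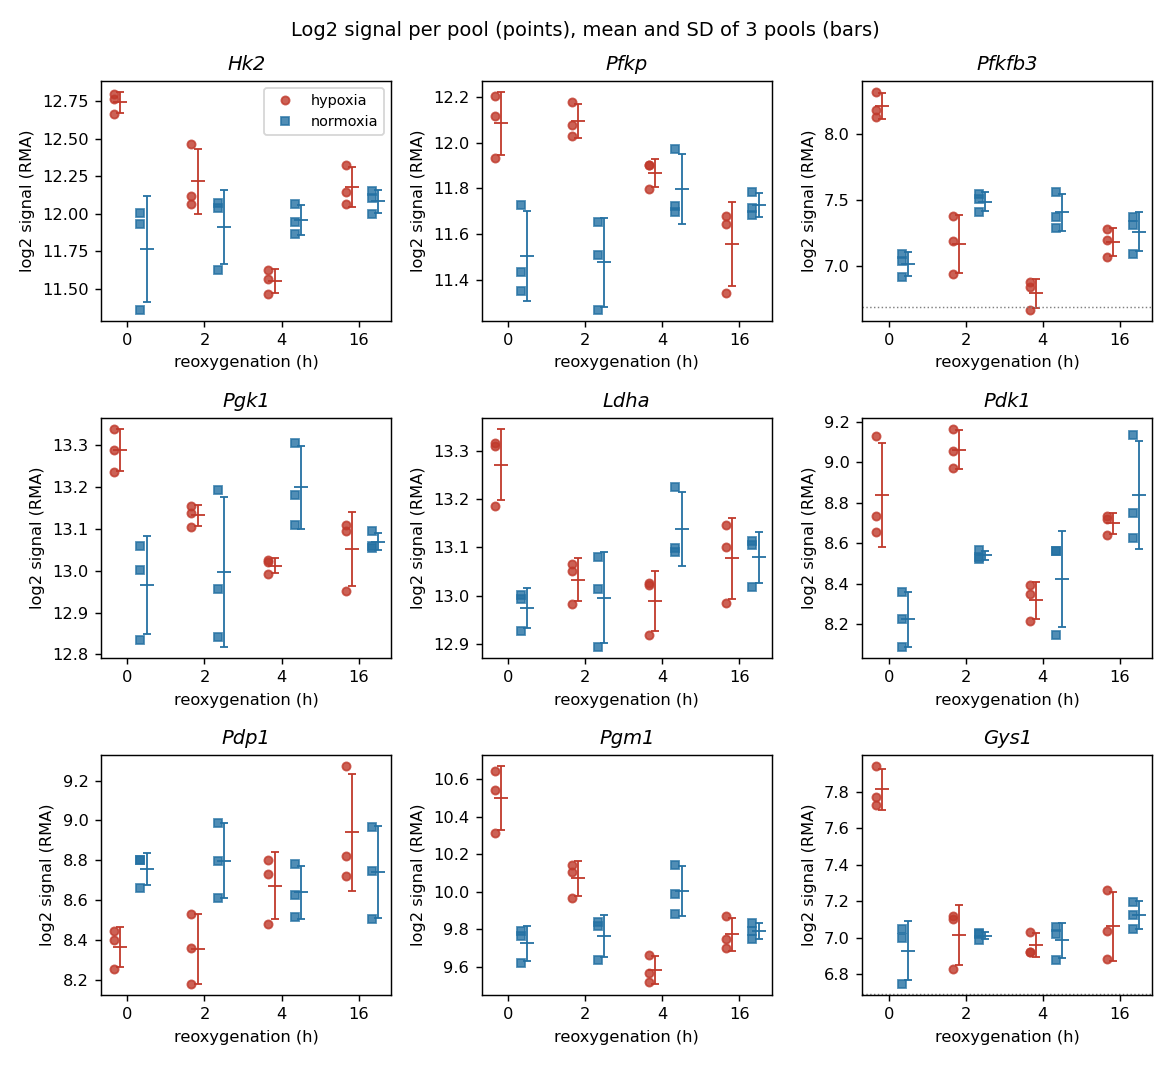
Log2 signal of 9 members in each pool, hypoxic pools as circles left of the normoxic squares, over hours of reoxygenation, with the mean and SD of 3 pools as bars and a dotted line at the signal threshold of 6.69 where it falls in a panel. At 0 h the hypoxic pools lay above the normoxic pools in all panels but that of Pdp1, where they lay below, and at 16 h the groups overlapped except for Pfkp.

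Smaller rises were found along the middle and end of the pathway. Tpi1, which interconverts the triose phosphates, had 12.97, 13.30 and 13.19 in hypoxic pools at 0 h, against 12.99, 12.93 and 12.63 in normoxic pools. Hypoxic pool 1 lay within the range of the normoxic pools. The log2 change was 0.30 (SE 0.10, adjusted p = 0.0208). It was 0.23 without hypoxic pool 2 (adjusted p = 0.111), 0.29 without hypoxic pool 3 (adjusted p = 0.0659) and 0.20 without normoxic pool 3 (adjusted p = 0.154). Pgk1, the first enzyme of glycolysis to yield ATP, had 13.24, 13.34 and 13.29 in hypoxic pools and 13.06, 13.00 and 12.83 in normoxic pools at 0 h. These groups were apart, with a log2 change of 0.32 (SE 0.09, adjusted p = 0.00602). At 4 h its hypoxic pools, at 12.99, 13.02 and 13.03, lay below the normoxic pools, at 13.11, 13.18 and 13.31, without being called (log2 change -0.19, adjusted p = 0.295).

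Ldha, the subunit of lactate dehydrogenase that favours lactate formation, was higher and Ldhb was not. Ldha had 13.19, 13.31 and 13.32 in hypoxic pools at 0 h, against 13.00, 12.99 and 12.93 in normoxic pools. All hypoxic pools lay above, with a log2 change of 0.30 (SE 0.07, adjusted p = 0.00371), or 1.23-fold, and 0.04 at 2 h. Ldhb, the subunit common in oxidative tissue, had 11.23, 11.20 and 11.37 in hypoxic pools and 11.39, 11.35 and 11.08 in normoxic pools. Its change was -0.01 (95% interval -0.23 to 0.21). The difference of Ldhb from Ldha was -0.31 at 0 h, with the pools apart, and 0.09 at 2 h. Over both times it was -0.11 (exact permutation p = 0.30), which does not separate the subunits.

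By limma the remaining enzymes of these steps were not called at any time, though the methods' t-test called Pgam1 higher at 0 h. They were Aldoa and Aldoc, the aldolases, Pgam1, the phosphoglycerate mutase, Eno2, the enolase of neurons, and Pkm, the pyruvate kinase of most tissues. Their log2 changes at 0 h ran between 0.04 in Eno2 and 0.17 in Pgam1. In Pgam1 and Aldoc the hypoxic pools nevertheless lay wholly above the normoxic pools at 0 h. Pkm lay above at 2 h and 4 h, with log2 changes of 0.17 and 0.14 (adjusted p = 0.118 and 0.362). The aldolases differed from each other by -0.07 over 0 h and 2 h (exact permutation p = 0.22). Gapdh, read from the control probe sets, had log2 changes of 0.03 to 0.05 at 0 h and of 0.07 in each at 2 h, with no test. With these probe sets kept in the fit, an alternative added after seeing the data, the same number of members was called in each direction at every time.

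Around pyruvate dehydrogenase, the kinase Pdk1 was higher and the phosphatase Pdp1 lower at 0 h and 2 h, while the subunits of the complex were not called by their brightest probe sets. Pdk1, which phosphorylates and so inhibits the complex, had 8.65, 9.13 and 8.73 in hypoxic pools at 0 h, against 8.22, 8.36 and 8.09 in normoxic pools. At 2 h it had 8.97, 9.16 and 9.05 in hypoxic pools, against 8.52, 8.53 and 8.57 in normoxic pools. The groups were apart at both times. The log2 change was 0.61 (SE 0.13, adjusted p = 0.00112), or 1.53-fold, at 0 h and 0.52 (SE 0.13, adjusted p = 0.0099), or 1.44-fold, at 2 h. It was -0.10 at 4 h and -0.14 at 16 h, neither of them called.

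Pdk3 was higher at 2 h, with 8.71, 8.70 and 8.64 in hypoxic pools against 8.35, 8.49 and 8.33 in normoxic pools (log2 change 0.29, SE 0.08, adjusted p = 0.02). At 0 h its pools were also apart, at 8.41, 8.53 and 8.46 in hypoxia against 8.29, 8.34 and 8.25 in normoxia, but the difference of 0.17 was not called (adjusted p = 0.118). The call at 2 h was lost without hypoxic pool 1 or 2 or normoxic pool 1 or 3, with adjusted p of 0.0511 to 0.0767. Pdk2 had 8.65, 8.59 and 8.63 in hypoxic pools and 8.67, 8.51 and 8.09 in normoxic pools at 0 h. Its groups overlapped and it was not called at any time. Pdk4, the kinase known to rise in fasting, was below the signal threshold in every group, with values between 3.48 and 4.06, and was not tested.

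The kinases differed in their response. Pdk1 moved up relative to Pdk2 by 0.49 over 0 h and 2 h and relative to Pdk3 by 0.34 (exact permutation p = 0.005 and adjusted p = 0.0163 for each). At both times the hypoxic pools lay above the normoxic pools in both pairs. Pdk3 and Pdk2 differed by 0.15 (exact permutation p = 0.19). With the mean of all probe sets of each gene, Pdk1 and Pdk3 no longer differed past the threshold (0.31, adjusted p = 0.119).

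**Figure D3:**
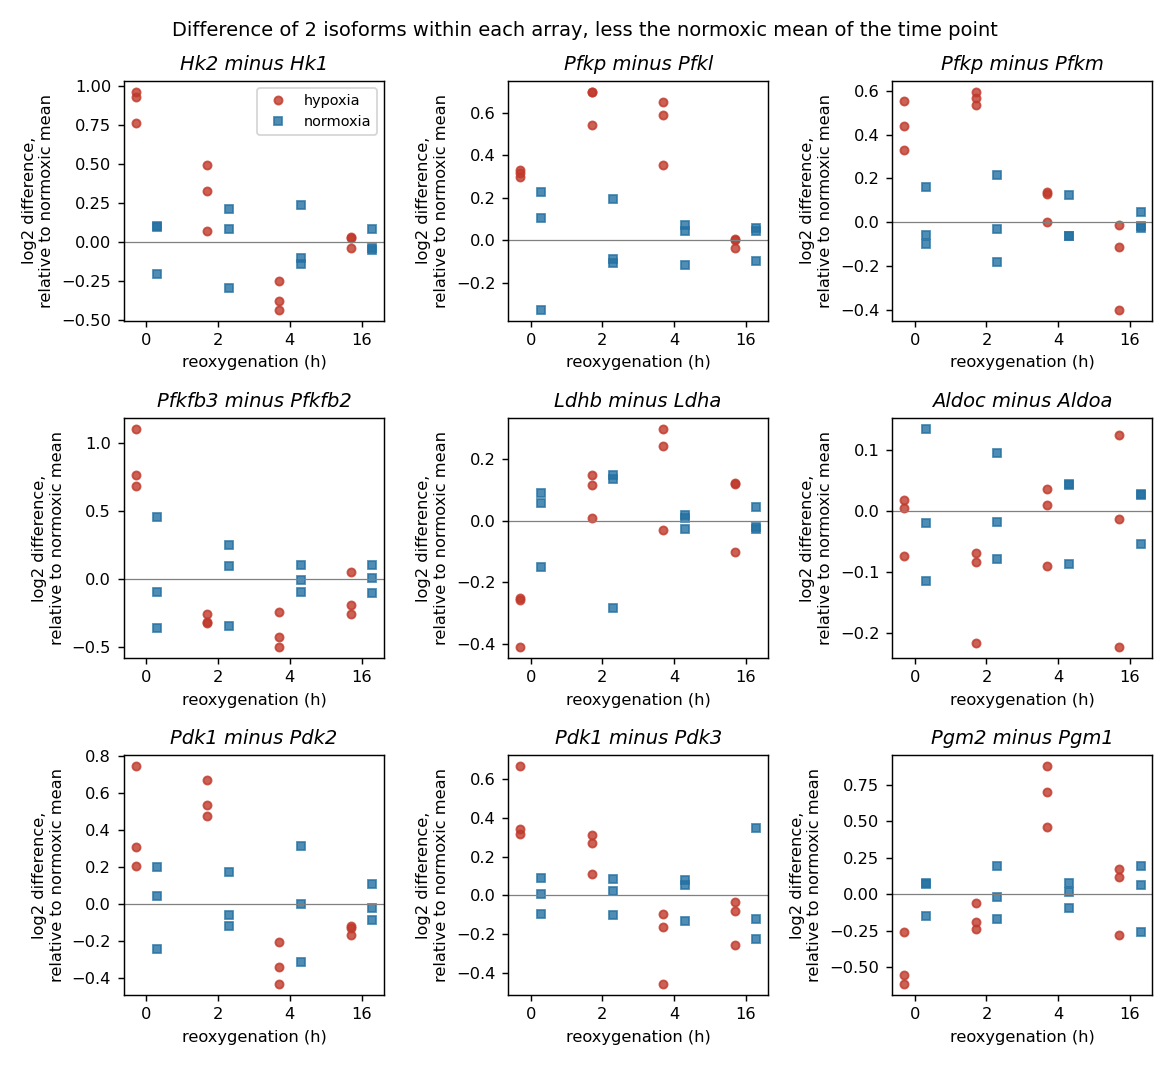
Log2 difference between a pair of isoforms within each array, less the normoxic mean of its time point, for 9 pairs over hours of reoxygenation, hypoxic pools as circles left of the normoxic squares. The circles of Pfkp against Pfkl and Pfkm and of Pdk1 against Pdk2 and Pdk3 lie above all squares at 0 h and 2 h, and those of Pfkfb3 against Pfkfb2 lie above at 0 h and within the range of the squares at 2 h.

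Pdp1, the phosphatase that reactivates the complex, had 8.40, 8.44 and 8.25 in hypoxic pools at 0 h, against 8.80, 8.66 and 8.80 in normoxic pools. At 2 h it had 8.53, 8.18 and 8.36 in hypoxic pools, against 8.80, 8.61 and 8.99 in normoxic pools. All hypoxic pools lay below at both times. The log2 change was -0.39 (SE 0.14, adjusted p = 0.0377) at 0 h and -0.44 (SE 0.14, adjusted p = 0.0343) at 2 h. These calls were near the threshold. At 0 h the call was lost without hypoxic pool 1 or 3 or normoxic pool 1 or 3 (adjusted p of 0.0676 to 0.132), and at 2 h without hypoxic pool 2 or 3 or normoxic pool 1 or 3 (adjusted p of 0.0751 to 0.157). The second probe set of the gene had -0.24 at 0 h (adjusted p = 0.0512) and -0.13 at 2 h. Pdha1, Pdhb and Dlat, which encode subunits of the complex, had log2 changes of 0.05, -0.10 and -0.12 at 0 h and of -0.15, -0.05 and -0.02 at 2 h, none of them called. A second probe set of Dlat, about as bright, was higher at 0 h (0.38, adjusted p = 0.0014).

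On the way into glycogen, Pgm1 and Gys1 were among the strongest rises at 0 h. Pgm1, the phosphoglucomutase that links glycogen and glycolysis, is listed as Pgm2 in older annotations and the present Pgm2 as Pgm1, and gene identifiers were used here. Its signal was 10.31, 10.64 and 10.54 in hypoxic pools at 0 h, against 9.79, 9.77 and 9.62 in normoxic pools. The groups were apart, with a log2 change of 0.77 (SE 0.09, adjusted p = 2.21e-06), or 1.71-fold. At 2 h the values were 10.14, 10.11 and 9.97 in hypoxic pools and 9.64, 9.84 and 9.82 in normoxic pools (log2 change 0.31, SE 0.09, adjusted p = 0.0289). At 4 h the hypoxic pools, at 9.52, 9.66 and 9.57, lay below the normoxic pools, at 9.88, 9.99 and 10.14 (log2 change -0.42, SE 0.09, adjusted p = 0.0214). By this probe set Pgm1 was thus higher, then less so, then lower than its controls, and at 16 h the difference was -0.02. A dim probe set of Pgm1, under the signal threshold and not tested, had -0.60 at 2 h and -0.06 at 4 h. The call at 2 h was lost without hypoxic pool 1 or 2 or normoxic pool 1 (adjusted p of 0.0747 to 0.126), and that at 4 h without hypoxic pool 1 or 3 or normoxic pool 2 or 3 (adjusted p of 0.0522 to 0.138).

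Pgm2, a related phosphopentomutase, had 7.04, 7.02 and 6.98 in hypoxic pools at 0 h, against 6.63, 6.84 and 6.68 in normoxic pools. The groups were apart and the log2 change of 0.30 was not called (adjusted p = 0.0572). Relative to Pgm1 it moved by -0.32 over 0 h and 2 h (exact permutation p = 0.01, adjusted p = 0.026), with a difference of -0.48 at 0 h. At 4 h the difference was 0.68, with the pools apart the other way. The pair no longer passed without normoxic pool 2 or 3 of 0 h, hypoxic pool 1 or 3 of 2 h, or normoxic pool 1 or 2 of 2 h (adjusted p of 0.0542 to 0.065).

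Gys1, the glycogen synthase of tissues other than liver, had 7.77, 7.94 and 7.73 in hypoxic pools at 0 h, against 7.04, 7.00 and 6.75 in normoxic pools. The groups were apart, with a log2 change of 0.88 (SE 0.10, adjusted p = 1.38e-06), or 1.85-fold. At 2 h the values were 7.12, 7.10 and 6.83 in hypoxic pools and 6.99, 7.03 and 7.02 in normoxic pools, a change of 0.00 (95% interval -0.21 to 0.22). Pygb, the glycogen phosphorylase of brain, had 9.34, 9.16 and 9.08 in hypoxic pools at 0 h, against 9.50, 9.48 and 9.26 in normoxic pools. That difference of -0.22 was not called (adjusted p = 0.0758). At 2 h it had 9.14, 9.25 and 9.18 in hypoxic pools, against 9.58, 9.63 and 9.57 in normoxic pools, and was lower (log2 change -0.40, SE 0.09, adjusted p = 0.00531). Gbe1, the branching enzyme of glycogen, lay above in all hypoxic pools at 0 h and at 2 h, with log2 changes of 0.23 and 0.35, and was not called (adjusted p = 0.16 and 0.0531).

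A direct test of the effect at 0 h against that at a later time gave the course of the list. The effect differed between 0 h and 2 h in 4 of 29 members (13.8%, against 8.21% of all probe sets tested), in Hk2, Pfkfb3, Pgm1 and Gys1. It was 2 without hypoxic pool 3 or normoxic pool 3 of 0 h, or without hypoxic pool 3 or normoxic pool 2 or 3 of 2 h. For 4 h the number was 11 (37.9%, against 16.9%), and for 16 h it was 8 (27.6%, against 20.6%). In Pfkp and Pdk1 the effects at 0 h and 2 h differed by -0.04 and 0.09 (adjusted p = 0.937 and 0.846), and those at 0 h and 4 h by 0.51 and 0.72 (adjusted p = 0.0352 and 0.0105). Their probe sets did not all behave alike at 2 h. The dimmest of Pfkp had 0.79 at 0 h and 0.24 at 2 h, when it was not called (adjusted p = 0.467). Both dim ones of Pdk1, which were not tested, had 0.49 and -0.25 at 2 h, and the average over all its probe sets was 0.29, against 0.52 for the brightest. By limma the brightest probe sets of Pfkl and Pgam1 were called at no single time, yet their effects at 0 h and 4 h differed by 0.73 and 0.33 (adjusted p = 0.0106 and 0.0384).

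Part of the later differences lay beside movement of the controls. In an F test over the 4 normoxic groups 2 of 29 members were called (3.54% of all probe sets tested). An unadjusted p under 0.05 was reached by 8, a count for which no share over all probe sets was taken. In order of time the normoxic means of Pfkfb3 were 7.02, 7.49, 7.41 and 7.26 (adjusted p = 0.0453), and those of Pdk1 were 8.22, 8.54, 8.42 and 8.84 (adjusted p = 0.0427). The hypoxic means of Pfkfb3 were 8.21, 7.17, 6.80 and 7.18 at the same times. Its lowest hypoxic group, at 4 h, thus also lay under its lowest normoxic group, at 0 h. Among members whose effect differed between 0 h and 4 h, the normoxic mean was highest at 4 h in Ldha, Pfkp, Pgam1, Pgk1, Pgm1 and Tpi1. It was highest at 2 h in Pfkfb3 and at 16 h in Gys1, Hk2, Pdk1 and Pfkl. Of these only Pfkfb3 and Pdk1 were called by the F test. In Pgk1 the normoxic means were 12.97, 13.00, 13.20 and 13.07, and the hypoxic mean at 4 h was 13.01. The part of the controls' movement in the later differences was not tested.

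The members' other probe sets at 0 h were read beside the brightest. All 3 probe sets of Pfkp (0.58, 0.56 and 0.79), all 3 of Tpi1 (0.30, 0.30 and 0.28), and both tested of Pdk1 (0.61 and 0.65) were higher. The second probe sets of Pfkfb3 (1.02) and Gys1 (1.20) were also called, but like a dim one of Pfkl they were under the signal threshold in normoxic pools. They entered the test only through the hypoxic pools, so only a higher value could be called and the calls are no support. In Pgk1 2 of 3 were higher and the third had 0.22 (adjusted p = 0.0771). Hk2 and Ldha each had 1 probe set. Disagreement was found for a subunit of the dehydrogenase complex. That second probe set of Dlat had 9.05, 9.25 and 9.31 in hypoxic pools at 0 h, against 8.90, 8.82 and 8.75 in normoxic pools, with the groups apart. The other probe sets of Dlat had -0.12 and -0.14. That probe set of Pfkl had 0.63 at 0 h (adjusted p = 0.015), where the brighter ones had 0.27 and 0.28. At 2 h its hypoxic pools, at 5.41, 5.37 and 5.26, lay below the normoxic pools, at 5.89, 6.31 and 6.89, all but 1 of these 6 under the signal threshold. Which transcript each probe set reads was not tested.

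**Figure D4:**
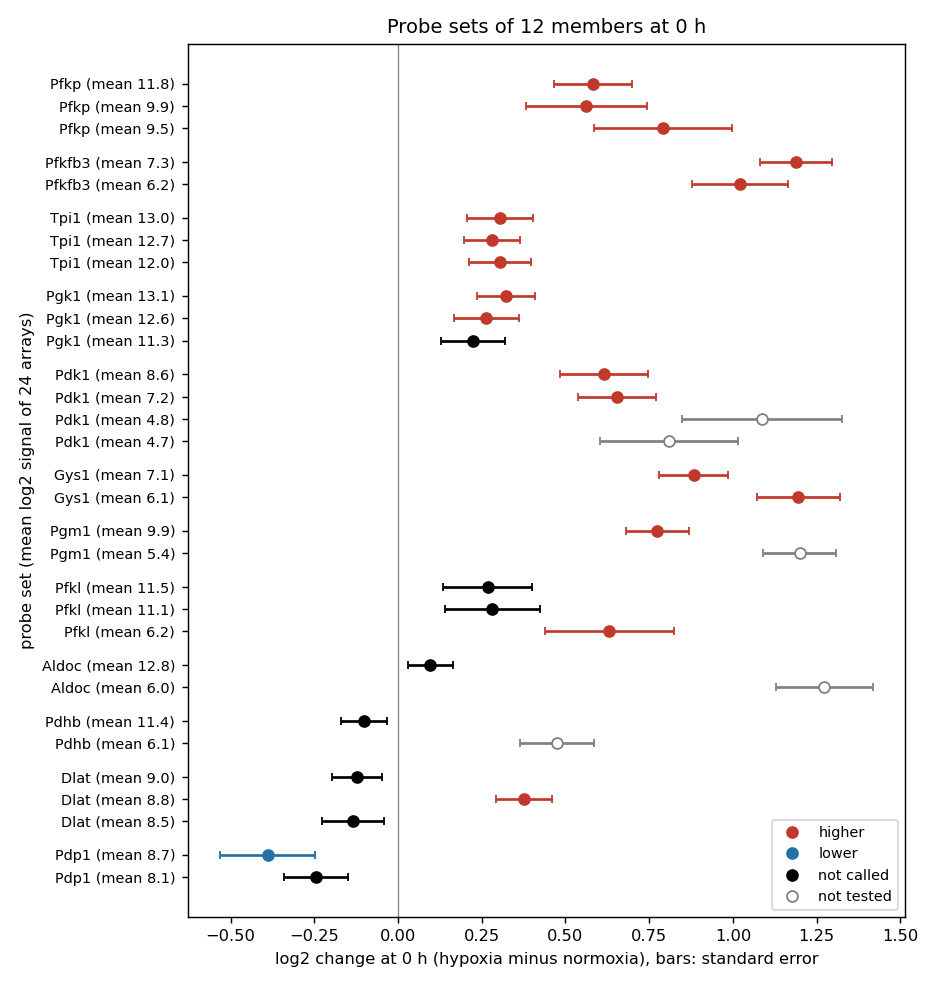
Log2 change at 0 h (hypoxia minus normoxia, with standard error) of each probe set of 12 members, labelled with its mean log2 signal over 24 arrays, open circles marking probe sets under the signal threshold that were not tested. The probe sets of Pfkp, Pfkfb3, Gys1 and, at 0.28 to 0.30, Tpi1 all lie on the side of a rise. Those of Aldoc, Pdhb and Dlat lie apart from each other. The dimmer probe sets of Pfkfb3 and Gys1 entered the test only through the hypoxic pools.

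Among genes of the neighbouring steps that were not members, more were lower than higher. Of 41 listed, 38 had a probe set and 26 were tested. At 0 h 2 were higher (7.69%, against 15.2% of all probe sets tested) and 7 lower (26.9%, against 17.2%), with a median log2 change of -0.08, against -0.01 over all probe sets. At 2 h 1 was higher (3.85%, against 9.19%) and 4 lower (15.4%, against 7.38%). At 4 h and 16 h limma called 0, with 4 and 0 at an unadjusted p under 0.05. No share over all probe sets was taken at that unadjusted p. Enzymes that interconvert the sugars of the pentose phosphate pathway were among the lower ones. Taldo1, the transaldolase, had 10.05, 9.81 and 9.86 in hypoxic pools at 0 h, against 10.59, 10.62 and 10.62 in normoxic pools. The groups were far apart for their spread (log2 change -0.70, SE 0.09, adjusted p = 3.73e-06), and the change was -0.68 at 2 h. Rpe, the ribulose phosphate epimerase, had -0.71 (SE 0.16, adjusted p = 0.00123) and Rpia, the ribose phosphate isomerase, -0.63 (SE 0.11, adjusted p = 0.000103) at 0 h. At 2 h Rpia had 0.09 and was not called. Tkt, the transketolase, chosen after its values were seen, was not called by its brightest probe set (0.14), while a dimmer one had 1.20 at 0 h and 1.10 at 2 h (adjusted p = 5.77e-09 and 1.41e-07). Pgm3, which makes a precursor of amino sugars, had -0.65 (SE 0.12, adjusted p = 0.000412), with a hypoxic mean of 6.49 that lay under the signal threshold, and Gyg, the glycogenin that primes glycogen, -0.46 (SE 0.09, adjusted p = 0.000537). Pygl, the glycogen phosphorylase of liver, was higher, with 0.47 (SE 0.18, adjusted p = 0.0455).

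**Figure D5:**
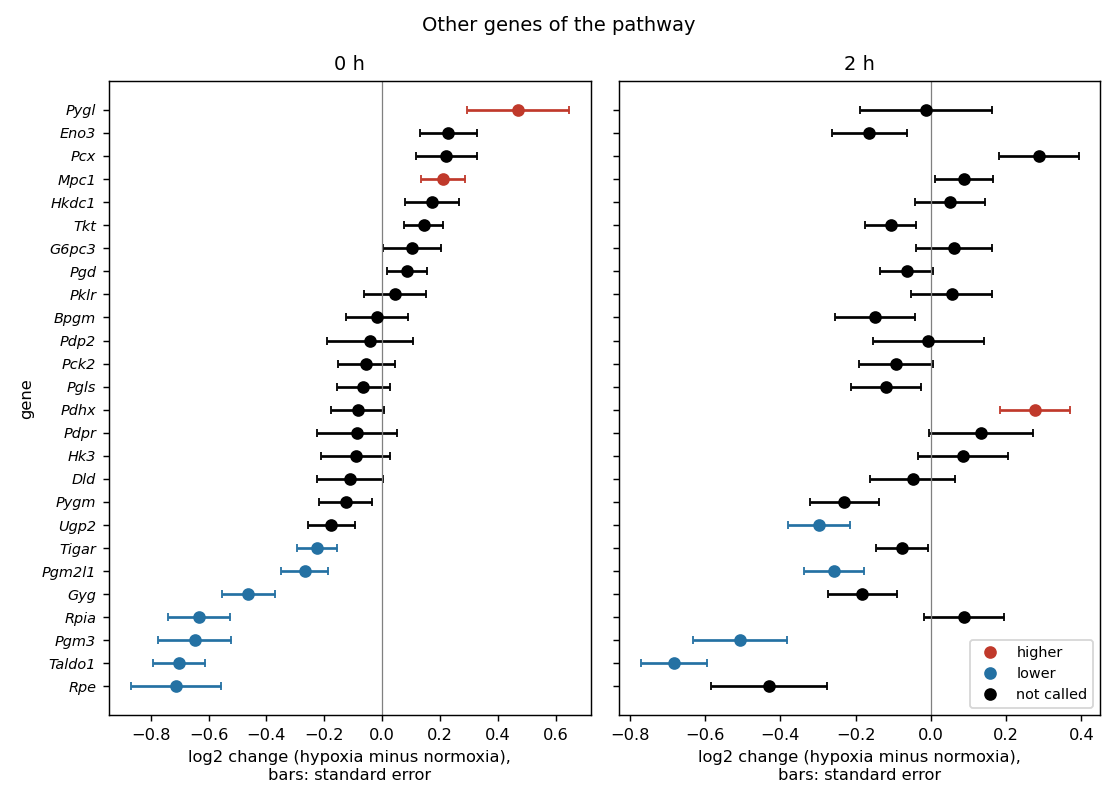
Log2 change (hypoxia minus normoxia, with standard error) of the 26 tested genes of neighbouring steps at 0 h and 2 h, ordered by the change at 0 h, in red where higher, blue where lower and black where not called. Taldo1, Rpe, Pgm3, Rpia and Gyg stand at the bottom at 0 h, and Taldo1 and Pgm3 are still lower at 2 h.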

How the data were processed

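Retinas were isolated after hypoxia or normoxia, 3 retinas of 3 mice were pooled for each array, and labelled RNA was hybridised to Affymetrix mouse expression arrays. The deposited log2 values were made by the authors with RMA, of which no version is given. It subtracts background, brings all arrays to the same quantiles and summarises the probes of each set, so that a change common to all genes is removed. The study's own gene lists came from GCRMA, which was not used here. Array medians lay between 5.79 and 5.84. Arrays hold no read depth, and their number limits the precision. The highest correlation of any 2 arrays was 0.997, so no array was a copy of another.

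Control probe sets, 64 in number, did not enter the tests, and 1 linear model with a mean per group was fitted to the other 45037 (limma 3.58.1 in R 4.3.3, eBayes, 16 residual degrees of freedom). Contrasts set hypoxia against normoxia within a time point, the effect at 0 h with later effects by contrasts of contrasts, and an F test served for the normoxic groups. The methods name a t-test on filtered values, and it was run as an alternative. Isoform pairs were tested by exact permutation in Python 3.11.15. The fits were tested on simulated data. Of the probe sets 34945 carry 1 gene symbol, 932 several and 9160 none here. Probe sets with several genes, 3 with Gapdh and 1 with Hk1 among them, were not used.

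The members and all gene lists were chosen with earlier results of these data known. Every member is accounted for, values of each pool are given for members called at 0 h or 2 h and the isoforms of their step, and of the neighbouring genes up to 6 called ones with the largest change at 0 h are named. The numbers of replicates were not used to pair the pools in the main fit. After removal of the group means, same-numbered hypoxic and normoxic pools correlated between -0.227 and 0.237. Of these 12 values 2 were above 0.1, both at 4 h (0.237 and 0.224), so pairing is not excluded at that time. Alternatives were other filters, scalings, spread estimates, weights, a block, other tests, other probe set rules, an adjusted p under 0.1 and leaving out each pool.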

Additional observations from a re-analysis of the deposited data

Results flagged for a closer look

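The effect of hypoxia at 0 h differed from that at a later time in the same limma fit for several members, with the difference given as the effect at 0 h minus the later effect on the log2 scale. Against 2 h it was 1.51 for Pfkfb3, 0.88 for Gys1, 0.67 for Hk2 and 0.47 for Pgm1. Against 4 h it was 1.80 for Pfkfb3, 1.38 for Hk2, 1.20 for Pgm1, 0.91 for Gys1, 0.73 for Pfkl, 0.72 for Pdk1, 0.51 for Pfkp, 0.51 for Pgk1, 0.45 for Ldha, 0.41 for Tpi1 and 0.33 for Pgam1. Against 16 h it was 1.27 for Pfkfb3, 0.95 for Gys1, 0.88 for Hk2, 0.79 for Pgm1, 0.75 for Pdk1, 0.75 for Pfkp, 0.30 for Ldha and -0.59 for Pdp1, the only negative one.

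Some probe sets of members lay under the signal threshold and were not tested, but all their hypoxic pools lay above all their normoxic pools at 0 h. The log2 changes were 1.27 for Aldoc, with 6.76, 6.56 and 6.68 in hypoxic pools and 5.35, 5.33 and 5.49 in normoxic pools, 1.20 for Pgm1, 1.09 and 0.81 for Pdk1 and 0.47 for Pdhb. The brighter probe sets of Aldoc and Pdhb had 0.10 and -0.10 at 0 h. At 2 h the dim probe set of Pgm1 had -0.60, where the brighter one had 0.31. These are differences of weak signals and no exact ratios of transcript.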

How the results depend on the processing

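Of 380 values of called members under the alternatives, 313 kept their direction and their side of the threshold, 66 kept the direction but were no longer called, and 1 was reversed, Pgm1 at 2 h, at -0.15 when a gene's probe sets were averaged. The 313 include the alternative with an adjusted p under 0.1, which could lose no call. For isoform pairs 166 of 182 kept their side of the threshold, 15 no longer passed, and Pgm2 relative to Pgm1 was reversed at 0.012 over all 4 time points. In that setting 1 pair passed in place of 6. The 166 include pairs that had not passed at first, whose direction was not counted. Pfkm relative to Pfkl, at -0.02, was at 0.08 to 0.14 in the alternatives other than leaving out a pool. Members higher at 0 h were 5 with the methods' t-test and 14 with averaged probe sets. Members lower at 0 h were 0 with no signal filter, 0 with median centring and 2 at an adjusted p under 0.1. At 2 h 0 were higher with the t-test and 2 with the 6 arrays alone, and 1 was lower with no filter, with the 6 arrays alone and with the t-test. At 4 h 1 was lower with the stricter threshold, 1 with averaged probe sets, and 0 with the 6 arrays alone or the t-test. Effects that differed between 0 h and 2 h were 2 with no filter. With replicate number as a block, 8 members were higher at 0 h and 1 lower (Pygb in place of Pdp1), 2 higher and 1 lower at 2 h and 1 lower at 4 h, and the effect at 0 h and 2 h differed in 2. Leaving out single pools gave 8 to 10 members higher and 0 to 1 lower at 0 h, 2 to 4 higher and 1 to 3 lower at 2 h, 1 to 2 lower at 4 h, 2 to 4, 8 to 11 and 6 to 9 effects that differed between 0 h and 2 h, 4 h and 16 h, and 4 to 6 isoform pairs. Fewer pools allow fewer splits. No cause of the other shifts was tested. Dim probe sets limit Pdk4 and the second probe sets of Aldoc and Pdhb.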
